A study of Homo sapiens with 24 samples.

Results

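The genes described here encode the inhibitors of cyclin-dependent kinases (CDKs) and the phosphatase CDKN3. They are CDKN1B and CDKN1C of the CIP/KIP family, CDKN2A, CDKN2B, CDKN2C and CDKN2D of the INK4 family, and CDKN3. They were chosen by symbol, and all 7 were found among the 58721 gene rows of every library. A549, a human lung adenocarcinoma cell line, was profiled by polyA RNA-seq in 24 libraries. In the first experiment, cells received 25 nM of siRNAs against MYBL2 (siMYBL2, n = 4) or FOXM1 (siFOXM1, n = 4), or a scrambled siRNA (siControl, n = 4). In the second, MYBL2 and FOXM1 were knocked down together, also at 25 nM (n = 3), and set against their own scrambled control (n = 3). No dose was stated for the scrambled siRNA. In the third, cells were exposed to 20 µM FDI-6, a small molecule described as an inhibitor of FOXM1 binding to DNA, for 24 h (n = 3), with control cells (n = 3), named as DMSO by the study and only as control in the labels. MYBL2 and FOXM1 are transcription factors that activate cell-cycle genes, and the comparisons ask which transcripts depend on each of them. A549 is 1 line, so every group shares its genotype. The study's methods call the replicates biological without saying how they were separated, and the p-values measure the spread between these libraries.

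CDKs drive the cell cycle when bound to cyclins. INK4 proteins bind CDK4 and CDK6 and keep them from the D-type cyclins, whereas CIP/KIP proteins bind assembled cyclin-CDK complexes, those of CDK2 above all. CDKN3, also called KAP, is not an inhibitor by binding: it is a phosphatase that removes the activating phosphate from the T-loop of CDK2 and CDK1, and its transcript is known to be most abundant in cells in G2 and mitosis. A549 is known to carry a homozygous deletion at 9p21 that takes CDKN2A and CDKN2B.

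Gene-assigned read pairs ranged from 16487394 to 30140550 per library, and levels are given as CPM, the count scaled to the size of the library after edgeR's TMM scaling. The targeted genes followed their labels. MYBL2 fell by 4.58 on the log2 scale with siMYBL2 and by 4.35 in the double knockdown, and FOXM1 fell by 3.38 with siFOXM1 and by 3.37 in the double knockdown. FOXM1 was also lower with siMYBL2 (log2 fold change -0.73, SE 0.14, edgeR adjusted p = 0.00754), while MYBL2 was at 149 CPM with siFOXM1 and 156 CPM in siControl (-0.06, adjusted p = 0.913). Of 5 epithelial markers, the keratins KRT8, KRT18 and KRT19 were at 1609 to 5641, 1019 to 2495 and 37.95 to 353.4 CPM over all libraries. CDH1 and EPCAM were lower, at 9.31 to 91.0 and 1.66 to 37.8 CPM. Of 5 markers of other cell types, PTPRC and CD68 reached at most 6 and 5 counts and were at 0 in 9 and 14 libraries, PECAM1 and COL3A1 reached 2.80 and 7.07 CPM, and COL1A1 lay between 4.87 and 57.9 CPM. Reads that did not align made up 9.09 to 10.9% in the double knockdown and 7.68 to 7.92% in its control, against 1.73 to 3.03% elsewhere. The part of this in the double-knockdown results was not tested.

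Of the members, 5 had enough reads to be tested in all 4 comparisons, whereas CDKN2A and CDKN2B did not. A gene was called when its edgeR quasi-likelihood adjusted p was under 0.05 and its fold over 1.5. CDKN3 was called lower in all 3 siRNA comparisons and no other member was. CDKN2C and CDKN2D were called lower with FDI-6, where CDKN3 fell by less than 1.5-fold. No member was called higher in these fits, which did not block replicate number. The 1 of 5 tested members called with siMYBL2 stood beside 7.90% of all genes tested, the 1 of 5 with siFOXM1 beside 0.667%, the 1 of 5 in the double knockdown beside 6.44%, and the 2 of 5 with FDI-6 beside 13.8%. With replicate number blocked in edgeR, CDKN1C was also called higher with siMYBL2 (log2 fold change 0.61, adjusted p = 0.0375), among 1991 genes called. CDKN2D was then also called lower in the double knockdown (-0.68, adjusted p = 0.0159), among 1849 genes called. The study had already named CDKN3 as a target that fell in the single and double knockdowns. It drew on these same knockdown data and on ChIP-seq, in which MYBL2, FOXM1 or both bound the promoters of its targets. New RT-qPCR of the named targets followed. The siRNA calls of CDKN3 were thus known when the members were chosen, so these shares are not a test of the list.

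**Figure D1:**
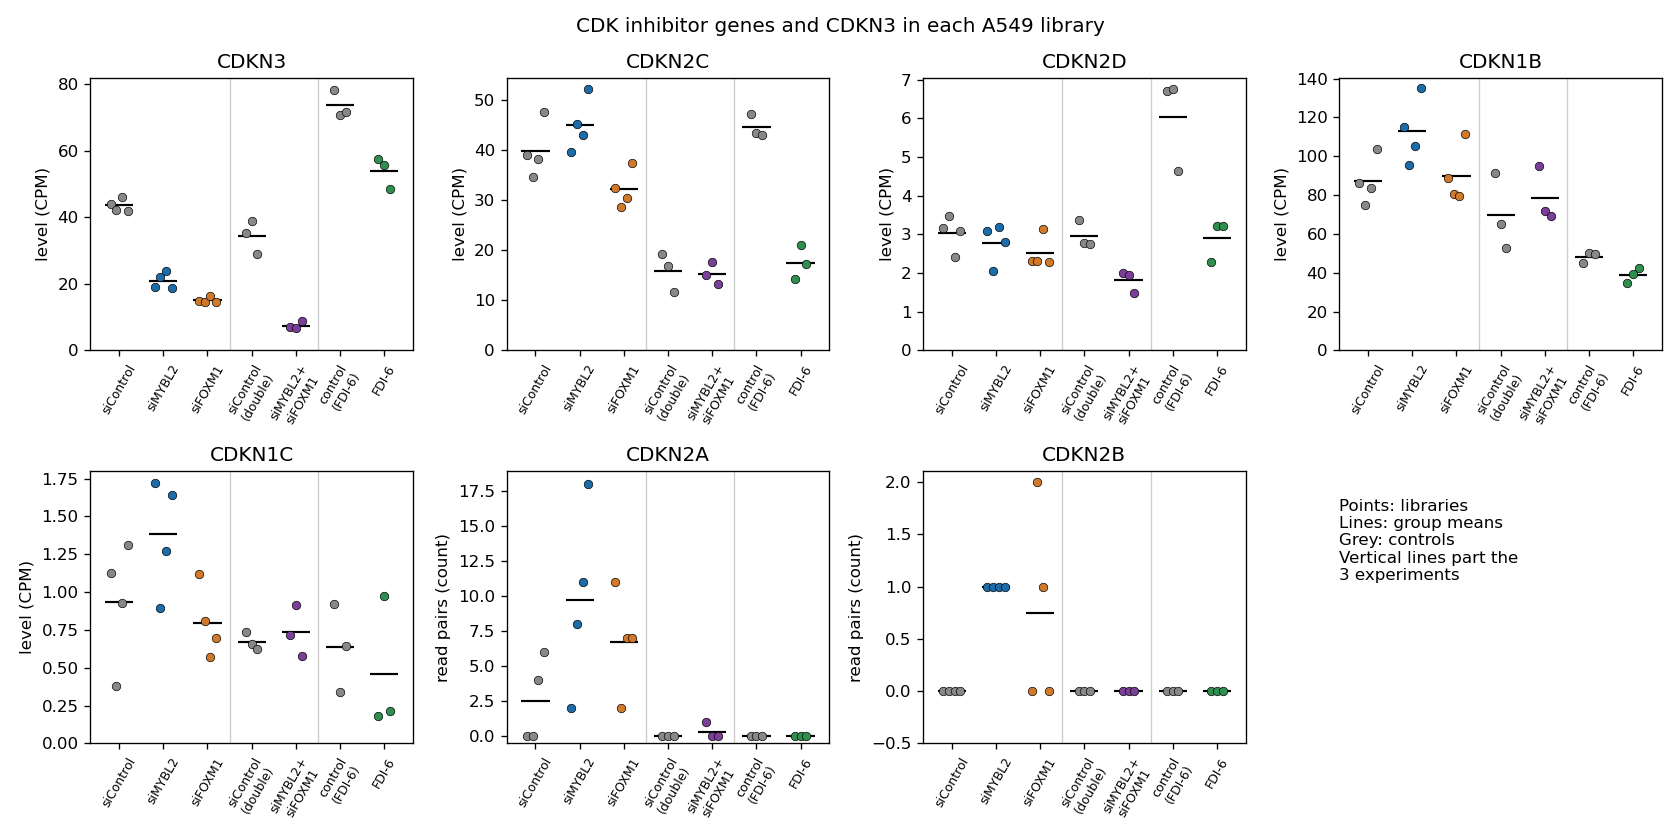
Level of each of the 7 genes in every library, grouped by experiment (CPM for the 5 tested genes, read counts for CDKN2A and CDKN2B). Points are libraries, lines are group means and grey points are controls. CDKN3 lies lower in every knockdown library than in any of its controls, and CDKN2A stays at or under 18 counts.

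Per kilobase of the canonical transcript, which allows genes of different length to be compared, the most abundant members over the 24 libraries were CDKN3 (median 38.2 CPM per kb), CDKN2C (33.6) and CDKN1B (33.2). These 3 medians differ by less than the spread of any of the genes across libraries. CDKN2D followed at 2.06 CPM per kb and CDKN1C at 0.436, and CDKN2A and CDKN2B had a median of 0. CDKN1A, the third CIP/KIP inhibitor, was at 79.1 CPM per kb. Set over the length of all annotated exons instead, CDKN3 was at 17.6, CDKN2C at 11.1 and CDKN1B at 8.65 CPM per kb, so the order of the 3 stayed while the gaps widened.

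CDKN3 (ENSG00000100526.19) lies at chr14:54396849-54420218 on the plus strand of hg38 (GENCODE V44), with 8 exons in its canonical transcript and no exon shared with another gene. Its promoter is shown because it was the member that fell with both siRNAs. The 250 bases before its RefSeq start (GRCh38.p14, chr14:54396757-54397006, plus strand) read 5′ to 3′ as follows, with capitals marking matches on either strand to the letters TTTGAA or TTCGAA (the cell cycle homology region, CHR), CCAAT (the CCAAT box), TAAACA (forkhead), AACGG (MYB), and TTCCCGC or TTGGCGC (E2F).
CDKN3: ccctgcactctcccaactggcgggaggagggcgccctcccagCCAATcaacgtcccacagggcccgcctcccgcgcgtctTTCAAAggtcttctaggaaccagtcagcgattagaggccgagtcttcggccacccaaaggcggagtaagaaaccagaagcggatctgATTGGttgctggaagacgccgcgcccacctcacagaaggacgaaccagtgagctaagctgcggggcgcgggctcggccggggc
From 5′, the capitals are a CCAAT box 208 to 204 bases before the start, a CHR match (TTTGAA on the other strand) at 170 to 165 and a CCAAT box on the other strand at 83 to 79. Among 35116 RefSeq promoter windows of this length, a CHR match of either spelling was present in 14.3%, a CCAAT box in 32% and both in 5.05%. The window held none of the forkhead, MYB or E2F letters, which occurred in 11%, 16.5% and 7.81% of windows. A match describes letters only and is not evidence of binding. Binding was measured by the study's ChIP-seq, which was not examined here.

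Upon knockdown of MYBL2, CDKN3 was at 19.1, 22.1, 23.9 and 18.9 CPM in replicates 1 to 4. The 4 siControl libraries had 44.02, 42.1, 46.1 and 42.0 CPM. The groups were far apart, with every knockdown library at about the same level. CDKN3 thus went from 43.6 ± 1.95 to 20.99 ± 2.43 CPM (SD, n = 4 each), 48.9% of control (log2 fold change -1.03, SE 0.088, edgeR adjusted p = 0.000233).

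Upon knockdown of FOXM1, CDKN3 was at 14.9, 14.6, 16.3 and 14.6 CPM against the same siControl libraries. Replicate 3 stood a little above the other three, and all 4 lay below every siMYBL2 library. The mean of 15.1 ± 0.81 CPM was 34.8% of control (log2 fold change -1.52, SE 0.067, adjusted p = 1.87e-05). The 4 same-numbered pairs gave log2 ratios between -1.567 and -1.502 with siFOXM1 and between -1.21 and -0.93 with siMYBL2, so the siFOXM1 response varied less from pair to pair. Compared directly, CDKN3 was 0.48 higher on the log2 scale in siMYBL2 than in siFOXM1 cells (SE 0.081, edgeR adjusted p = 0.00106), a difference test that 25.3% of 16538 genes passed.

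In the double knockdown, CDKN3 was at 6.90, 6.67 and 8.90 CPM, and its control libraries at 35.2, 38.9 and 29.04 CPM. These were its lowest levels in the series, and the groups did not overlap. The means were 7.49 ± 1.23 and 34.4 ± 4.98 CPM (SD, n = 3 each), which left 22.2% of control (log2 fold change -2.17, SE 0.16, edgeR adjusted p = 0.000294).

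The double-knockdown fall exceeded the siMYBL2 fall by 1.14 on the log2 scale (log2 difference -1.14, SE 0.16, edgeR adjusted p = 0.00449), where 0.167% of all genes passed that test. It exceeded the siFOXM1 fall by less (log2 difference -0.65, SE 0.16, adjusted p = 0.0301, beside 4.37% of genes). That difference also passed with DESeq2 (-0.66, adjusted p = 0.0054), where 1220 of 17336 genes passed. With replicate numbers blocked in edgeR it passed too (-0.65, adjusted p = 0.00159), where 4324 genes passed. This second difference was not stable: it missed the threshold with upper-quartile scaling (-0.59, adjusted p = 0.0524) and in 7 of 18 fits that each left out 1 library, those without siFOXM1 replicate 3, siControl replicate 1 or 2, double-knockdown replicate 1 or 2, or double-knockdown control replicate 1 or 2, where it lay between -0.65 and -0.56. Set against the sum of the 2 single effects, the double-knockdown effect was 0.38 higher (SE 0.22, adjusted p = 0.999), so a departure from additivity on the log2 scale was not detected, and none was called for any of 17336 genes (0%, with 3.17% at an unadjusted edgeR p under 0.05, 1 gene by DESeq2 and 216 genes when replicate numbers were blocked). The double and single knockdowns came from separate experiments with separate controls.

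With FDI-6, CDKN3 was at 57.5, 55.6 and 48.6 CPM, and in its control cells at 78.1, 70.9 and 71.7 CPM. All 3 treated libraries were below all 3 controls, yet above every library of the siRNA experiments. The means were 53.9 ± 4.72 and 73.6 ± 3.97 CPM, or 74.3% of control (log2 fold change -0.43, SE 0.082, edgeR adjusted p = 0.00182), a fall under 1.5-fold. The FDI-6 effect on CDKN3 was weaker than the siFOXM1 effect by 1.09 on the log2 scale (SE 0.10, adjusted p = 1.47e-05), a test that 20.9% of 17026 genes passed. FOXM1 itself was at 98.9 CPM with FDI-6 and 130 CPM in the control (log2 fold change -0.37, adjusted p = 0.004), also under 1.5-fold.

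Over all 24 libraries, with each level centred on its own control mean, the genes whose log2 levels followed CDKN3 most closely among 13887 were CDK1 (r = 0.975), TROAP (r = 0.967) and NEK2 (r = 0.959). These are descriptions over libraries that share 3 sets of controls. CDK1, a substrate of CDKN3, was at 132 CPM in siControl, 85.0 with siMYBL2 and 81.8 with siFOXM1, and at 46.8 CPM in the double knockdown against 103 in its control.

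**Figure D2:**
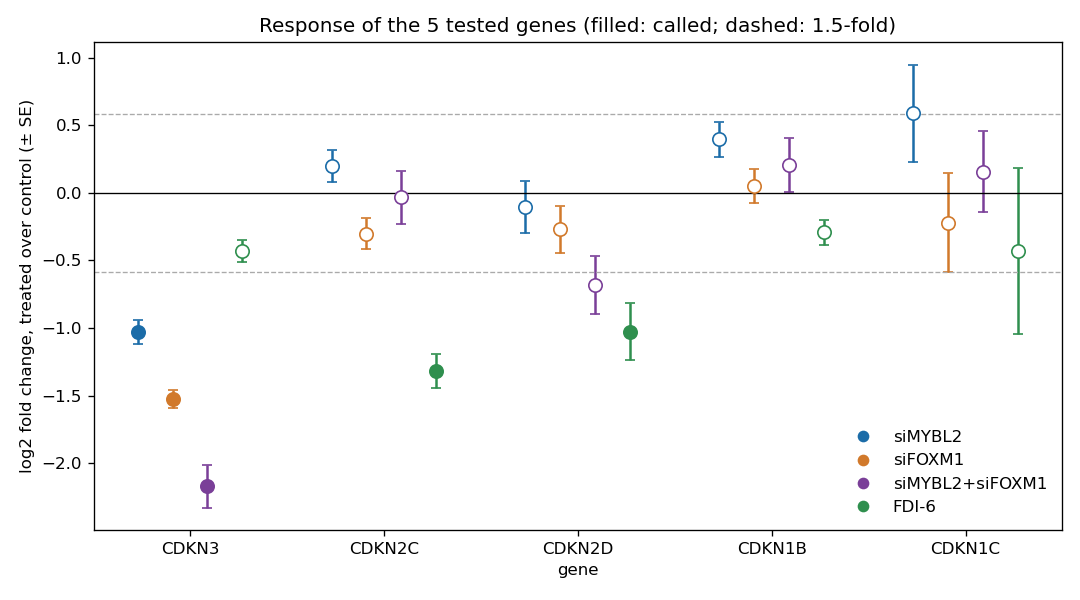
Log2 fold change with its standard error for the 5 tested genes in the 4 comparisons. Filled points were called and dashed lines mark 1.5-fold. CDKN3 is filled for the 3 knockdowns, while CDKN2C and CDKN2D are filled for FDI-6 only, which is not a test of the difference between treatments.

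CDKN2C (ENSG00000123080.10, chr1:50960745-50974634, plus strand) encodes p18, an INK4 inhibitor of CDK4 and CDK6. A gene of the other strand, ENSG00000290102, covers 20.4% of its exonic bases. The strand setting of the counting is not given in the sources used here, so reads of the overlap cannot be assigned with certainty. CDKN2D (ENSG00000129355.6, chr19:10566460-10569059, minus strand) encodes p19, the other INK4 inhibitor retained in A549, and shares no exon. The 250 bases before the start of their canonical transcripts are shown because both genes fell with FDI-6 (GRCh38.p14, chr1:50969995-50970244, plus strand, and chr19:10568980-10569229, minus strand, capitals as above).
CDKN2C: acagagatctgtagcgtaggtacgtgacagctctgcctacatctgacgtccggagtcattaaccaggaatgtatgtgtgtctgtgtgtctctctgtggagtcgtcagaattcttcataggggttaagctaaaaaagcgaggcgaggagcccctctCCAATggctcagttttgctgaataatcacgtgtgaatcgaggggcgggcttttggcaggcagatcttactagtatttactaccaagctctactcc
CDKN2D: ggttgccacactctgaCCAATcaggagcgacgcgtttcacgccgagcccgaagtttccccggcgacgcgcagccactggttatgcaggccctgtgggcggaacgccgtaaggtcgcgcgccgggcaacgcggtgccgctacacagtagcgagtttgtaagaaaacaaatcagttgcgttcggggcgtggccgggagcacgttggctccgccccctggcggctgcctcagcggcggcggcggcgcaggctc
Both windows hold 1 CCAAT box, 95 to 91 bases before the start in CDKN2C and 234 to 230 in CDKN2D, and no match to the CHR, forkhead, MYB or E2F letters. CDKN2C has another RefSeq start with a window at chr1:50968456-50968705 that holds 2 matches to the E2F letters TTCCCGC, and one at chr1:50960495-50960744 with 1 match to TAAACA.

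With FDI-6, CDKN2C was at 14.3, 21.03 and 17.1 CPM, against 47.2, 43.3 and 42.9 CPM in the control cells. Every treated library was under every control by a wide margin. The means of 17.5 ± 3.38 and 44.5 ± 2.39 CPM (SD, n = 3 each) put CDKN2C at 40% of control (log2 fold change -1.32, SE 0.12, edgeR adjusted p = 1.38e-05). This call was kept in each of the 6 fits that left out 1 library, with log2 fold changes from -1.47 to -1.19. In the same comparison the epithelial markers KRT8, KRT18 and CDH1 were called lower (log2 fold changes -0.81, -0.65 and -1.49), while KRT19 and EPCAM were not called (0.35 and -0.47). COL1A1, a fibroblast collagen that these cells also express, was called lower (-1.28), and the part of these shifts in the CDKN2C result was not tested.

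CDKN2C was called with neither siRNA. With siMYBL2 it was at 39.6, 45.1, 42.9 and 52.2 CPM, with siFOXM1 at 32.3, 28.7, 30.3 and 37.4, and in siControl at 39.0, 34.5, 38.2 and 47.6. The 3 groups overlap, although within each number the order siMYBL2, siControl, siFOXM1 was the same in 4 of 4. The log2 fold changes were 0.20 with siMYBL2 (SE 0.12, adjusted p = 0.282) and -0.30 with siFOXM1 (SE 0.11, adjusted p = 0.293). Blocked by replicate number, these reached adjusted p = 0.0121 and 1.45e-05, still under 1.5-fold. Between the siRNAs, CDKN2C was 0.49 higher with siMYBL2 (SE 0.12, adjusted p = 0.00865).

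In the double knockdown, CDKN2C was at 15.0, 17.5 and 13.2 CPM, against 19.3, 16.8 and 11.6 CPM in its control (log2 fold change -0.03, SE 0.20, adjusted p = 0.936). The sign of this value turned with upper-quartile scaling (0.045). The control of the double knockdown thus held 15.9 ± 3.92 CPM of CDKN2C (n = 3), against 39.8 ± 5.51 CPM in the siControl cells of the first experiment (n = 4), without overlap. Both received a scrambled siRNA, and experiment and control cannot be told apart. The FDI-6 effect on CDKN2C was 1.02 lower than the siFOXM1 effect (log2 difference -1.02, SE 0.19, edgeR adjusted p = 0.0018). Nearest to CDKN2C in pattern were TFEB (r = 0.944), SDF4 (r = 0.92) and UQCRB (r = 0.917), measured as for CDKN3 above.

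CDKN2D, at 36 to 139 counts per library, was at 2.28, 3.22 and 3.21 CPM with FDI-6, against 6.71, 6.77 and 4.63 CPM in the control. The groups did not overlap, and control replicate 3 was the nearest to the treated cells. The means were 2.90 ± 0.54 and 6.04 ± 1.22 CPM, 49% of control (log2 fold change -1.03, SE 0.21, edgeR adjusted p = 0.00279). A test against 1.5-fold itself instead of 0 did not pass (adjusted p = 0.167). CDKN2D was at 3.04 CPM in siControl and 2.97 CPM in the control of the double knockdown, near its level with FDI-6. Experiment and control cannot be told apart there.

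In the double knockdown, CDKN2D was at 1.999, 1.958 and 1.48 CPM, against 3.37, 2.77 and 2.76 CPM. The groups did not overlap, but the value missed the threshold (log2 fold change -0.68, SE 0.22, adjusted p = 0.0754). Blocked by replicate number, it passed (-0.68, adjusted p = 0.0159), which made 2 members called there rather than 1. With the single siRNAs, CDKN2D lay between 2.06 and 3.20 CPM for siMYBL2, 2.29 and 3.15 for siFOXM1 and 2.42 and 3.48 for siControl. The groups overlapped (log2 fold changes -0.11 and -0.27, adjusted p = 0.75 and 0.604). The FDI-6 effect was lower than the siFOXM1 effect by 0.76 without passing the test (log2 difference -0.76, SE 0.28, adjusted p = 0.0692). Genes nearest in pattern were RCC1L (r = 0.822), GNAI2 (r = 0.803) and EIF4E2 (r = 0.802).

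CDKN1B (ENSG00000111276.10, chr12:12685498-12722369, plus strand) encodes p27, an inhibitor whose protein level is set largely by degradation. With siMYBL2 it was at 115, 95.7, 106 and 135 CPM, with siFOXM1 at 88.7, 80.6, 79.6 and 111, and in siControl at 86.3, 75.1, 83.9 and 104. Replicate 4 was the highest library of each group. The siMYBL2 value was higher than siControl in 4 of 4 same-numbered pairs, with a mean log2 ratio of 0.37 ± 0.04 (SD), and the groups overlapped. Its log2 fold change of 0.40 (SE 0.13) had an edgeR adjusted p of 0.066, and of 5.61e-06 when blocked by replicate number, under 1.5-fold in both. With siFOXM1 the log2 fold change was 0.05 (SE 0.13, adjusted p = 0.935). The direct difference between the siRNAs was 0.34 (SE 0.14, adjusted p = 0.0925, and 9.89e-07 with the block).

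CDKN1B in the double knockdown was at 94.9, 72.0 and 69.3 CPM, against 91.2, 65.2 and 52.7 CPM in the control. It was higher in 3 of 3 same-numbered pairs but the groups overlapped (log2 fold change 0.20, SE 0.20, adjusted p = 0.536, and 0.0346 with the block, under 1.5-fold). With FDI-6 it was at 34.9, 39.2 and 42.3 CPM, against 45.3, 50.2 and 49.6 CPM, so the treated libraries were all lower (log2 fold change -0.29, SE 0.093, adjusted p = 0.0263), again by less than 1.5-fold. MYRF (r = 0.939), ZSWIM5 (r = 0.931) and SPP1 (r = 0.904) were nearest to CDKN1B in pattern.

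CDKN1C (ENSG00000129757.13, chr11:2883213-2885775, minus strand) encodes p57 from an imprinted cluster at 11p15 and was scarce, with 3 to 47 counts per library. With siMYBL2 it was at 1.72, 0.89, 1.27 and 1.64 CPM, with siFOXM1 at 1.12, 0.81, 0.57 and 0.70, and in siControl at 1.13, 0.38, 0.93 and 1.31. All 4 siMYBL2 values exceeded their same-numbered controls, although the groups overlapped. The log2 fold change with siMYBL2 was 0.59 (SE 0.36, edgeR adjusted p = 0.298). With the block it was 0.61 and was called (adjusted p = 0.0375), which made 2 members called rather than 1, and the difference from siFOXM1 passed only with the block (log2 difference 0.80, SE 0.35, adjusted p = 0.117, and 0.0134 with the block). In the double knockdown CDKN1C lay between 0.57 and 0.92 CPM against 0.62 and 0.74 in its control. With FDI-6 it was at 0.18, 0.98 and 0.22 CPM against 0.92, 0.34 and 0.65 CPM. At this depth no difference was detectable in either (log2 fold changes 0.16 and -0.43, SE 0.30 and 0.62, adjusted p = 0.761 and 0.615). The FDI-6 value ran from -1.60 to -0.06 when 1 library was left out and passed the test in none of these 6 fits.

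Among 6 neighbours of CDKN1C in the imprinted cluster, SLC22A18, a transporter, was called higher with siMYBL2 (log2 fold change 0.76, adjusted p = 0.0339) and in the double knockdown (0.80, adjusted p = 0.0373), and lower with FDI-6 (-0.64, adjusted p = 0.0161). H19, a maternally expressed noncoding RNA, was lower with FDI-6, at 0.25 against 1.81 CPM (log2 fold change -2.80, adjusted p = 0.000571). Its level with FDI-6 was near the 0.163 to 0.18 CPM that 3 counts make in those libraries. No neighbour was called with siFOXM1, and KCNQ1OT1, the noncoding RNA of the same imprinted domain, was called in no comparison. All 6 were tested with each single siRNA, and 5 in the double knockdown and with FDI-6. Called were thus 1, 0, 1 and 2 with siMYBL2, siFOXM1, the double knockdown and FDI-6. In that order, 7.90%, 0.667%, 6.44% and 13.8% of all genes tested were called. The list medians were 0.65, -0.21, 0.49 and -0.079, beside 0.015, 0.0025, 0.017 and -0.012 over all genes tested. When blocked by replicate number, KCNQ1 (0.78, adjusted p = 0.021) and IGF2 (0.96, adjusted p = 0.0276) were also called higher with siMYBL2 and H19 lower (-0.81, adjusted p = 0.0171). KCNQ1, IGF2 and H19 were scarce, with at most 67, 41 and 88 counts in any library. Other genes of the same strand overlap 43.2% of the IGF2 exon bases.

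CDKN2A (ENSG00000147889.17, chr9:21967752-21995301, minus strand) encodes p16 and p14ARF, and CDKN2B (ENSG00000147883.10, chr9:22002903-22009305, minus strand) encodes p15. CDKN2A had 2, 8, 11 and 18 counts in the siMYBL2 libraries, 11, 2, 7 and 7 with siFOXM1 and 0, 0, 4 and 6 in siControl. In the double knockdown it had 1, 0 and 0 counts, and 0 in its 3 controls, the 3 FDI-6 libraries and the 3 controls of FDI-6. It exceeded 3 counts in 8 of 24 libraries, all in the first experiment, and was at 0 in 13. CDKN2B had 1 count in each siMYBL2 library, 0, 2, 1 and 0 with siFOXM1, and 0 in every other library. Neither reached the level needed for a test, and 3 counts correspond to 0.0996 to 0.18 CPM depending on the library. Of the CDKN2A exon bases, 15.3% overlap CDKN2B-AS1 on the other strand, which had at most 1 count. The source of the few CDKN2A reads was not tested.

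The low levels extended to genes beside the pair, and the files hold RNA counts, not DNA. On the telomeric side, FOCAD, KLHL9, MIR31HG and IFNE had medians of 87.1, 64.2, 3.43 and 2.47 CPM over the 24 libraries. MTAP, the methionine salvage enzyme whose gene lies next to CDKN2A, had a median of 0.295 CPM and at most 16 counts. CDKN2A-DT was at 0 in every library and CDKN2B-AS1 in 22 of 24. On the centromeric side, DMRTA1, the next gene examined, was present at a median of 4.22 CPM, and TUSC1, CAAP1 and PLAA at 16.4, 38.3 and 64.8 CPM. IFNA1, of which 63.4% overlaps MIR31HG on the other strand, had a median of 0.307 CPM. IFNB1, ELAVL2 and IZUMO3 were also at or near 0 (medians 0, 0.112 and 0 CPM) but are genes of restricted expression.

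**Figure D3:**
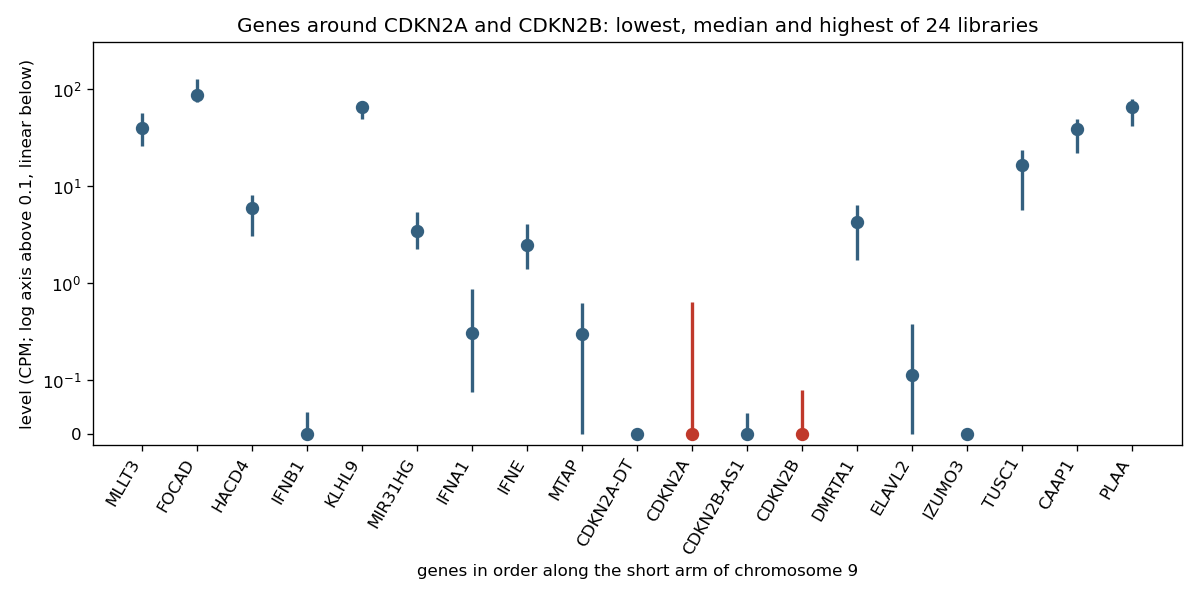
Lowest, median and highest level over the 24 libraries (CPM, log axis above 0.1 and linear below) for CDKN2A, CDKN2B (red) and other genes of the short arm of chromosome 9 in their order. MTAP, CDKN2A-DT, CDKN2A, CDKN2B-AS1 and CDKN2B lie under 1 CPM in every library, between IFNE and DMRTA1.

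CDKs and cyclins of the cell cycle were taken as a list of 13, of which 11 were tested. Not all of them are partners of each inhibitor. With siMYBL2, 4 were called lower and 0 higher, namely CDK1 (log2 fold change -0.62), CCNA2 (-0.70), CCNB1 (-0.77) and CCND3 (-1.23). With siFOXM1, 3 were called lower and 0 higher, CDK1 (-0.69), CCNA2 (-0.61) and CCNB1 (-0.68), while CCND3 had a log2 fold change of 0.25 (adjusted p = 0.608). In the double knockdown 5 were called lower and 0 higher, led by CCNA2 (-1.46) and CCNB1 (-1.22), with CDK1 (-1.10), CCNB2 (-0.83) and CCND3 (-0.64). With FDI-6 only CCND3 was called (-1.15), while CDK1 had a log2 fold change of -0.12 (adjusted p = 0.227). The medians of the list were -0.39, -0.10, -0.58 and -0.18 in the same order, beside 0.015, 0.0025, 0.017 and -0.012 over all genes tested. In that order, 7.90%, 0.667%, 6.44% and 13.8% of all genes tested were called. CCND3, a D-type cyclin and partner of the INK4 target CDK4, went from 117 to 49.3 CPM with siMYBL2 (adjusted p = 0.000968) and from 289 to 128 CPM with FDI-6 (adjusted p = 2.51e-06). In the control of the double knockdown CCND3 was at 102.5 CPM, so its FDI-6 control was the highest of the control groups. CDK4 and CDK6 were called in no comparison. In the double knockdown CDK6 was lower by just under 1.5-fold (-0.585, edgeR adjusted p = 0.0432, and 1.43e-05 when blocked by replicate number). With FDI-6, CDK6 was higher (0.50, adjusted p = 0.00149) and CDK4 lower (-0.37, adjusted p = 0.00716), each by less than 1.5-fold. Blocked by replicate number, CCNE2 was also called higher with siMYBL2 (0.67, adjusted p = 8e-04) and CCND1 lower with siFOXM1 (-0.61, adjusted p = 2.07e-14).

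Of 10 genes for p27 turnover and transcription, all tested, 2 were called lower and 0 higher with siMYBL2 and in the double knockdown. None was called with siFOXM1, and 3 were called higher and 0 lower with FDI-6. Of all genes tested, 7.90% were called with siMYBL2, 0.667% with siFOXM1, 6.44% in the double knockdown and 13.8% with FDI-6. CKS1B, the cofactor by which the SCF-SKP2 ligase recognises p27, was at 49.1 CPM with siMYBL2 and 141 CPM in siControl (log2 fold change -1.502, SE 0.144, edgeR adjusted p = 0.000337), and fell by 1.03 in the double knockdown (adjusted p = 0.00205). UHMK1, a kinase that phosphorylates p27, fell by 1.44 with siMYBL2 (adjusted p = 3.12e-05) and by 1.55 in the double knockdown (adjusted p = 0.000376). With FDI-6 it was higher instead, at 203 against 113 CPM (0.87, adjusted p = 2.54e-06), as were FOXO1 (0.90, adjusted p = 0.000977) and FOXO3 (0.67, adjusted p = 0.000185), forkhead activators of CDKN1B. UHMK1 was at 210 CPM in siControl and 183 CPM in the control of the double knockdown, both above its FDI-6 control. SKP2 was called in no comparison. It stood at -0.28 with siMYBL2 (edgeR adjusted p = 0.203, and 0.00072 when blocked by replicate number). With siFOXM1 it stood at 0.32 (adjusted p = 0.282, and 2.92e-06 when blocked), both under 1.5-fold. The medians of the list were -0.018, 0.076, 0.001 and -0.04, beside the medians of all genes given above.

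**Figure D4:**
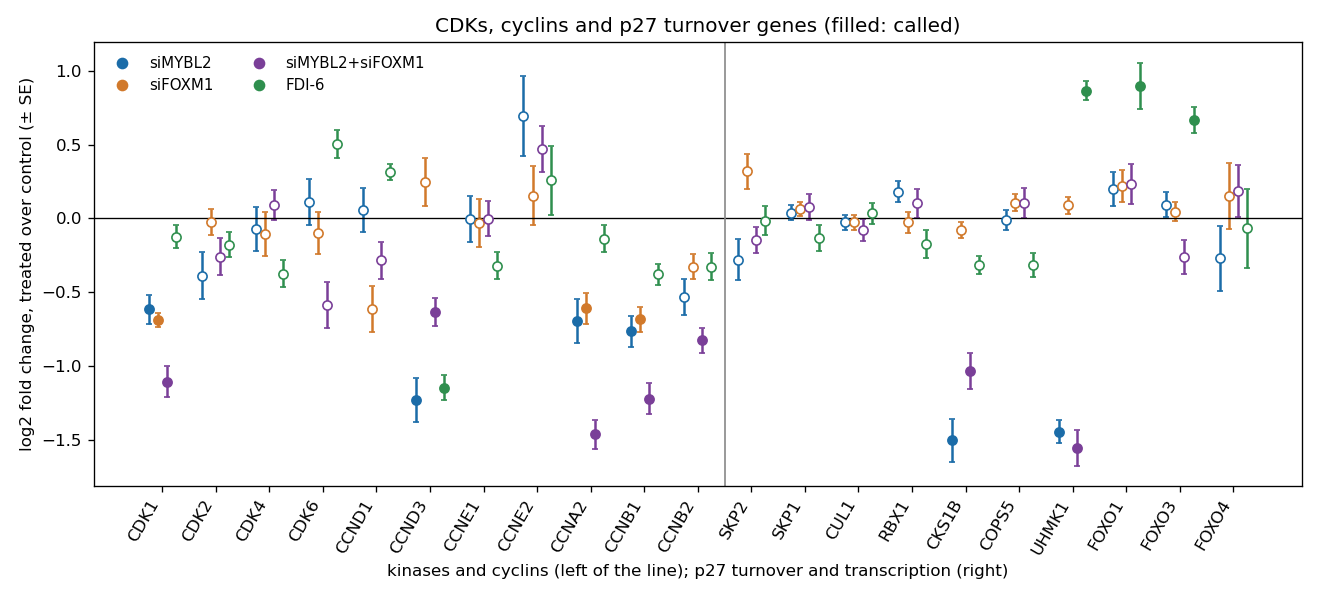
Log2 fold change with its standard error for the tested CDKs and cyclins (left of the line) and p27 turnover genes (right) in the 4 comparisons, filled where called. CDK1, CCNA2 and CCNB1 are filled for the 3 knockdowns and open for FDI-6, and UHMK1 is lower with siMYBL2 and the double knockdown and higher with FDI-6.

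CDKN1A, which encodes p21, was called higher in the double knockdown, at 259 against 158 CPM (log2 fold change 0.74, SE 0.19, edgeR adjusted p = 0.0373), with 3 of 3 same-numbered pairs higher. It was also higher in 4 of 4 same-numbered pairs with siMYBL2 (log2 fold change 0.43, adjusted p = 0.0897, and 3.98e-05 when blocked by replicate number) and in 4 of 4 with siFOXM1 (0.24, adjusted p = 0.666, and 4.13e-06 when blocked), each by less than 1.5-fold. With FDI-6 it stood at 0.18 (adjusted p = 0.115). Differences between treatments were not tested for CDKN1A. RB1, RBL1 and RBL2, the pocket proteins that CDKs phosphorylate, were called in no comparison. With FDI-6 all 3 were higher by less than 1.5-fold (log2 fold changes 0.57, 0.32 and 0.48, adjusted p = 0.000459, 0.0244 and 0.000868). In every same-numbered pair all 3 were lower with siMYBL2 (-0.15, -0.24 and -0.26, adjusted p = 0.137, 0.219 and 0.194, and 0.0281, 0.00344 and 0.00101 when blocked) and in the double knockdown (-0.33, -0.44 and -0.14, adjusted p = 0.0807, 0.0252 and 0.351, and 0.00435, 0.001 and 0.157 when blocked). With siFOXM1, RBL1 was lower in 4 of 4 pairs and RB1 and RBL2 higher in 4 of 4 (-0.21, 0.068 and 0.10, blocked adjusted p = 0.000602, 0.201 and 0.0479). None of CDK7, CCNH and MNAT1, which form the kinase that adds the phosphate CDKN3 removes, was called in any comparison.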

How the data were processed

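RNA of A549 cells was sequenced after polyA capture as 150 bp read pairs. Per the labels and the methods of the study, the authors trimmed reads with Trim Galore, aligned them to hg38 with STAR and counted read pairs per GENCODE V29 gene with HTSeq. The deposited counts are whole numbers, unnormalized, 1 table per library. Versions and the strand setting are not given in the sources used here. Rows that name no gene were left out of library sizes: they held 18.5 to 26.2% of the read pairs of a library, of which those that did not align made up 1.73 to 10.9% of the library.

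Each treatment was tested against its own control with edgeR 4.0.16 (R 4.3.3): filterByExpr, TMM scaling, quasi-likelihood F-test without a block, Benjamini-Hochberg adjustment over all genes tested, and calls at adjusted p under 0.05 with a fold over 1.5. Differences between effects were tested in one fit over the groups concerned, at adjusted p under 0.05. The siMYBL2 and siFOXM1 comparisons share their controls. SE is on the log2 scale. CPM values use TMM-scaled library sizes, and their precision is limited by counting error for genes of a few counts. The test was checked on simulated data. DESeq2 1.42.0, other scalings, filters, a test against 1.5-fold, the replicate number as a block and leaving out each library were alternatives. Members and gene lists were chosen with earlier results of these data known. CDKN2A and CDKN2B did not pass filterByExpr in the 4 comparisons or between siMYBL2 and siFOXM1, and in the other tests of differences members with 3 or fewer counts in every library of a group were left out. Named were the members, MYBL2, FOXM1, CDKN1A, the called genes of each list or those with the largest changes, and for members above 1 CPM the 3 genes with the highest Pearson r of log2(CPM + 1).

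The replicate numbers in the titles paired the samples of the siRNA experiments, since deviations from the group means correlated for every same-numbered pair (lowest r = 0.537, over at least 11865 genes). For FDI-6 they did not (r from -0.286 to 0.159). Gene positions are those of GENCODE V44 on hg38, matched by Ensembl ID for 58207 of 58721 rows. Promoter sequences are from RefSeq (GRCh38.p14).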

Additional observations from a re-analysis of the deposited data

Results flagged for a closer look

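In siFOXM1, replicate 3 stood apart from the other three libraries for CDKN2D (3.15 CPM) and for CDKN3 (16.3 CPM), by a rule that chance meets in about 1 of 20 groups. Without that library the siFOXM1 fall of CDKN3 kept its call.

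The effects of treatments differed for CDKN3 between siMYBL2 and siFOXM1 (log2 difference 0.48), between the double knockdown and siMYBL2 (-1.14), between the double knockdown and siFOXM1 (-0.65) and between FDI-6 and siFOXM1 (1.09). For CDKN2C they differed between siMYBL2 and siFOXM1 (0.49) and between FDI-6 and siFOXM1 (-1.02). Each was tested within 1 edgeR fit at an adjusted p under 0.05.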

How the results depend on the processing

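The CDKN3 calls in the 3 knockdown comparisons and the CDKN2C call with FDI-6 were kept under each alternative tried, leave-one-out fits included. Genes called over the whole table moved most. A test against 1.5-fold left 199 with siMYBL2, 14 with siFOXM1, 128 in the double knockdown and 496 with FDI-6, and 1 member (CDKN2C) rather than 2 with FDI-6. DESeq2 called 163 with siFOXM1, and no filter gave 1545 in the double knockdown. Leaving out 1 library gave 56 to 115 with siFOXM1 (fewest without siFOXM1 replicate 1) and 587 to 1097 in the double knockdown. Upper-quartile scaling moved the share of higher calls in the double knockdown from 43.5 to 59.4%.

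With the replicate number as a block, 1991, 401 and 1849 genes were called with siMYBL2, siFOXM1 and the double knockdown, and 2 members with siMYBL2 and 2 in the double knockdown. With the block, 4 members differed between siMYBL2 and siFOXM1, where 8435 of 16538 genes passed. Between the FDI-6 and siFOXM1 effects 4 members differed, where 6523 of 17026 genes passed and the FDI-6 numbers share only a number. There CDKN1B (-0.35, adjusted p = 0.00335) and CDKN2D (-0.76, adjusted p = 0.0481) were added. The block changed no other call of a member, and added CCNE2, KCNQ1, IGF2 and H19 with siMYBL2 and CCND1 with siFOXM1 to the listed genes called.

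The number of members whose double-knockdown and siFOXM1 effects differed was 0 with upper-quartile scaling and 0 to 1 when 1 library was left out. For CDKN2C in the double knockdown, upper-quartile scaling turned the sign (0.045) and leave-one-out values ran from -0.21 to 0.13. Other leave-one-out sign changes were in values that passed no test, with these ranges: CDKN2D with siMYBL2 -0.21 to 0.015, CDKN1B with siFOXM1 -0.064 to 0.15, and CDKN1C in the double knockdown -0.031 to 0.29. Differences between effects ran for CDKN1B from -0.36 to 0.055 (double knockdown minus siMYBL2), -0.022 to 0.39 (minus siFOXM1) and -0.43 to 0.01 (minus the sum). For the sum they ran from -0.62 to 0.31 for CDKN1C and -0.13 to 0.25 for CDKN2C, and from -1.39 to 0.15 for CDKN1C between FDI-6 and siFOXM1. The causes were not tested.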
